A study of Homo sapiens with 9 samples.

Results

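The E2 family of ubiquitin-conjugating enzymes was taken as every symbol of the deposited expression table that starts with UBE2. The rule found 47 of 27800 symbols, and 37 of them reached at least 1 TPM (the unit of the table, a share of all transcripts corrected for their length) in at least 3 of 9 libraries and were tested. In the GENCODE 29 annotation 37 of the 47 symbols are protein coding, of which 33 were tested. The other 10 are antisense transcripts, pseudogenes or symbols without a match, of which 4 were tested. The libraries came from PANC-1, an established cell line from a human pancreatic tumour, under combined nutrient and oxygen deprivation. There were 3 libraries at day 0, 3 at day 2 and 3 at day 14, and all 9 columns of the table have names that begin with WT. The medium given for all 9 samples was DMEM with amino acids at 20% of the usual level, fetal calf serum at 0.5% and 2.5 mM glucose, with no further treatment. The labels leave out how cells were grown up to day 0, give no undeprived cells at day 2 or day 14, and do not state whether libraries of a day came from separate cultures. Deprivation and time in culture therefore cannot be told apart, and p-values measure the spread between these libraries, which may be technical.

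Ubiquitin is passed along a chain of enzymes. An E1 enzyme activates it, an E2 enzyme carries it as a thioester, and an E3 ligase brings the loaded E2 to a substrate. The E2 largely sets which kind of chain is built: chains linked through lysine 48 send proteins to the proteasome, chains linked through lysine 11 do so in mitosis, and chains linked through lysine 63 serve in signalling and DNA repair. A few family members carry other modifiers, NEDD8, ISG15 or FAT10, in place of ubiquitin.

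Promoter sequence was set beside the expression values for 4 genes described below: UBE2T, UBE2S and UBE2E3, which fell at both later days, and UBE2Z, which rose at both. Some other called genes, UBE2C and UBE2H among them, had no window in the set used. UBE2K, UBE2L6, UBE2R2, UBE2E2, UBE2A, UBE2D4, UBE2V1, UBE2D3 and UBE2D2 were called and had windows that are not printed. The 4 were picked and do not stand for all called genes. The UBE2K window, of a gene that rose at both days, held none of the motifs marked below. The sequences are from RefSeq on GRCh38.p14, from 250 bases before to 50 bases after an annotated start, read 5′ to 3′ on the gene's strand; the deposited table names hg19, so the coordinates are not those of the authors' processing. The UBE2T window is chr1:202341887-202342186, minus strand. The UBE2S window is chr19:55407739-55408038, minus strand. The 2 UBE2E3 starts have the windows chr2:180980110-180980409, plus strand, and chr2:180980355-180980654, plus strand. The UBE2Z window is chr17:48908157-48908456, plus strand. Capitals mark matches, on either strand, to CCAAT (the CCAAT box), TTTGAA (the cell cycle homology region, CHR), TTCCCGC (an E2F site), ACGTG (the core of a hypoxia response element) and TGATGNAA (a C/EBP-ATF element). None of these motifs overlaps another in the printed windows.
UBE2T: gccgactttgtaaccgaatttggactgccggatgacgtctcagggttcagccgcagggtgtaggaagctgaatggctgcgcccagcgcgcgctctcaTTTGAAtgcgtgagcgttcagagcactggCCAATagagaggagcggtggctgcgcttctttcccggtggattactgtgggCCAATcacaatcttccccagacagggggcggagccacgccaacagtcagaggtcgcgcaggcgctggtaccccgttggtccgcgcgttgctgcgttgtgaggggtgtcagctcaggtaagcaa
UBE2S: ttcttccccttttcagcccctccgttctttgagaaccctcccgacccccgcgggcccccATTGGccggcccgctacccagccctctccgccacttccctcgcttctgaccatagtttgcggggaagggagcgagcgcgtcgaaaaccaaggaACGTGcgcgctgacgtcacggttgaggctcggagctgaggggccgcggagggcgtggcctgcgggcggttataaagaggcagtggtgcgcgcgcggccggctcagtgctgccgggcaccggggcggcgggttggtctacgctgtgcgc
UBE2E3 upstream start: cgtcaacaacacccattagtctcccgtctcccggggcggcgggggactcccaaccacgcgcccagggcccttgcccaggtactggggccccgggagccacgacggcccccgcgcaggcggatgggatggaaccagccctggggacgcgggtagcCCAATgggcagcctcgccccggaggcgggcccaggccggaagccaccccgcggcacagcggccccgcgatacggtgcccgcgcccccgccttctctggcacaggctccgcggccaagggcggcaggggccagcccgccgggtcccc
UBE2E3 downstream start: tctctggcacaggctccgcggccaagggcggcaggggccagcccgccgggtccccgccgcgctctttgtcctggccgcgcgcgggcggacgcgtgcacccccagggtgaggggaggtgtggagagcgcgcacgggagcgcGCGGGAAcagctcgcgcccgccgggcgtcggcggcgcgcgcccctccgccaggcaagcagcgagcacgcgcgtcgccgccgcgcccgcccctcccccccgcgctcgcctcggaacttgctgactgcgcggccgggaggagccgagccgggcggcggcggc
UBE2Z: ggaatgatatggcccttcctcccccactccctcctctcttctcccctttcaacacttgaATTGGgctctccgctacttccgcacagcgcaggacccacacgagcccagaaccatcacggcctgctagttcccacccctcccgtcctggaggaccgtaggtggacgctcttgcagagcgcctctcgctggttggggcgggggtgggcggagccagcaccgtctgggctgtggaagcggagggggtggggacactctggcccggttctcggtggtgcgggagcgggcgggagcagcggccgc
The UBE2T window held 2 CCAAT boxes and 1 CHR, and the UBE2S window held 1 CCAAT box and 1 ACGTG. At UBE2E3 the upstream window held 1 CCAAT box and the downstream window 1 E2F match. The UBE2Z window, of a gene that rose, also held 1 CCAAT box. Of all 35116 promoter windows in the RefSeq table, 34.6% hold CCAAT, 15.2% TTTGAA, 6.55% TTCCCGC, 21.4% ACGTG and 3.62% TGATGNAA. The 26 tested UBE2 genes with a window had 38 windows, of which 10 held CCAAT, 3 TTTGAA, 3 TTCCCGC, 6 ACGTG and 0 TGATGNAA. Counted by gene, 8 had CCAAT, 3 TTTGAA, 3 TTCCCGC, 5 ACGTG and 0 TGATGNAA in at least 1 window. The counts by gene cannot be set against the shares of all windows, because some genes have several windows. A match is a run of letters and not a shown binding site.

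1 library stood apart. Day 0 replicate 2 correlated with the other day 0 libraries at 0.870 and 0.875 across genes on the log2(TPM + 1) scale, while those correlated at 0.972 with each other. Its ribosomal protein genes held 23.8% of the TPM, against 10.2% to 14.8% in the other 8 libraries, and 11363 symbols reached 1 TPM in it, against 13016 to 13868. The symbols MIR6723 and MIR4461 together held 22.43% to 40.27% of a library's TPM. All 8 ductal epithelial markers were at 1 TPM or more in every library, with summed levels of 3245 to 4452 TPM at day 0, 1191 to 1411 TPM at day 2 and 1300 to 1486 TPM at day 14. KRT8, KRT18 and KRT19 carried these sums, and SOX9 ran the other way, with means of 45.5, 56.5 and 93.3 TPM at days 0, 2 and 14, as did MUC1 with 24.0, 64.6 and 35.3 TPM. KRT7 had 5.74 ± 1.74, 7.60 ± 0.84 and 7.61 ± 1.70 TPM (SD, n = 3 each). Acinar, islet, blood, endothelial and hepatocyte markers were each under 1 TPM throughout, as were 3 of 4 fibroblast markers. The fourth, COL1A1, averaged 37.2, 65.8 and 10.3 TPM at days 0, 2 and 14, with a range of 8.29 to 72.6 TPM. The part of these marker levels in the results was not tested. Several results are also given without day 0 replicate 2. TPM keeps no sequencing depth, so depth is unknown, and in bulk RNA a smaller share of cells expressing a gene and less RNA per cell cannot be told apart.

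On the TPM as deposited, the called UBE2 genes went in both directions at day 2 and were mostly higher at day 14. The called genes of the whole table split the same way. At day 14, 18 of the 37 UBE2 genes were not called. Day 2 and day 14 were each compared with the same day 0 libraries by limma on log2(TPM + 1), with Benjamini-Hochberg adjustment over all 14144 tested genes at 0.05. At day 2 against day 0, 6 of 37 UBE2 genes (16.2%) were called higher, beside 19.2% of all tested genes, and 4 (10.8%) were called lower, beside 11.5%. At day 14 against day 0, 15 (40.5%) were called higher, beside 27.5% of all genes, and 4 (10.8%) lower, beside 6.72%. The median log2 change of the 37 genes was 0.09 at day 2 and 0.43 at day 14, and that of all tested genes was 0.23 and 0.44. The shares at day 2 were thus near those of the whole table, as was the median at day 14.

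The 19 called genes fell into 3 patterns. UBE2T, UBE2S, UBE2C and UBE2E3 were called lower at both days. UBE2H, UBE2Q2P2, UBE2W, UBE2B, UBE2Z and UBE2K were called higher at both days. UBE2L6, UBE2Q2L, UBE2R2, UBE2E2, UBE2A, UBE2D4, UBE2V1, UBE2D3 and UBE2D2 were called higher at day 14 and not at day 2. For each call, all 3 libraries of the later day lay on the same side of all 3 day 0 libraries. The calls come from these same values, so this adds no support to them. At day 2, 13 UBE2 genes lay wholly above day 0 and 7 wholly below, with 10 called. At day 14, 17 lay wholly above and 4 wholly below, with 19 called. No such count was made over all genes. Without day 0 replicate 2, 8 UBE2 genes were higher and 10 lower at day 2, beside 24.7% and 23.6% of all genes, and 18 were higher and 4 lower at day 14, beside 34.6% and 14.5%. The split between higher and lower also depends on the scaling. After median-ratio scaling, which places the median change of all genes at -0.045 at day 2 and -0.042 at day 14, 4 UBE2 genes were higher and 9 lower at day 2, and 6 were higher and 7 lower at day 14. All genes then split into 2512 higher and 2818 lower at day 2 and 2193 higher and 2534 lower at day 14, against 2715 and 1633, and 3890 and 951, on the TPM as deposited. Of the 15 genes called higher at day 14, UBE2H, UBE2W, UBE2Z, UBE2L6, UBE2R2 and UBE2Q2P2 also passed after that scaling and the other 9 did not; of the 6 at day 2, UBE2B, UBE2Z and UBE2K did not.

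**Figure D1:**
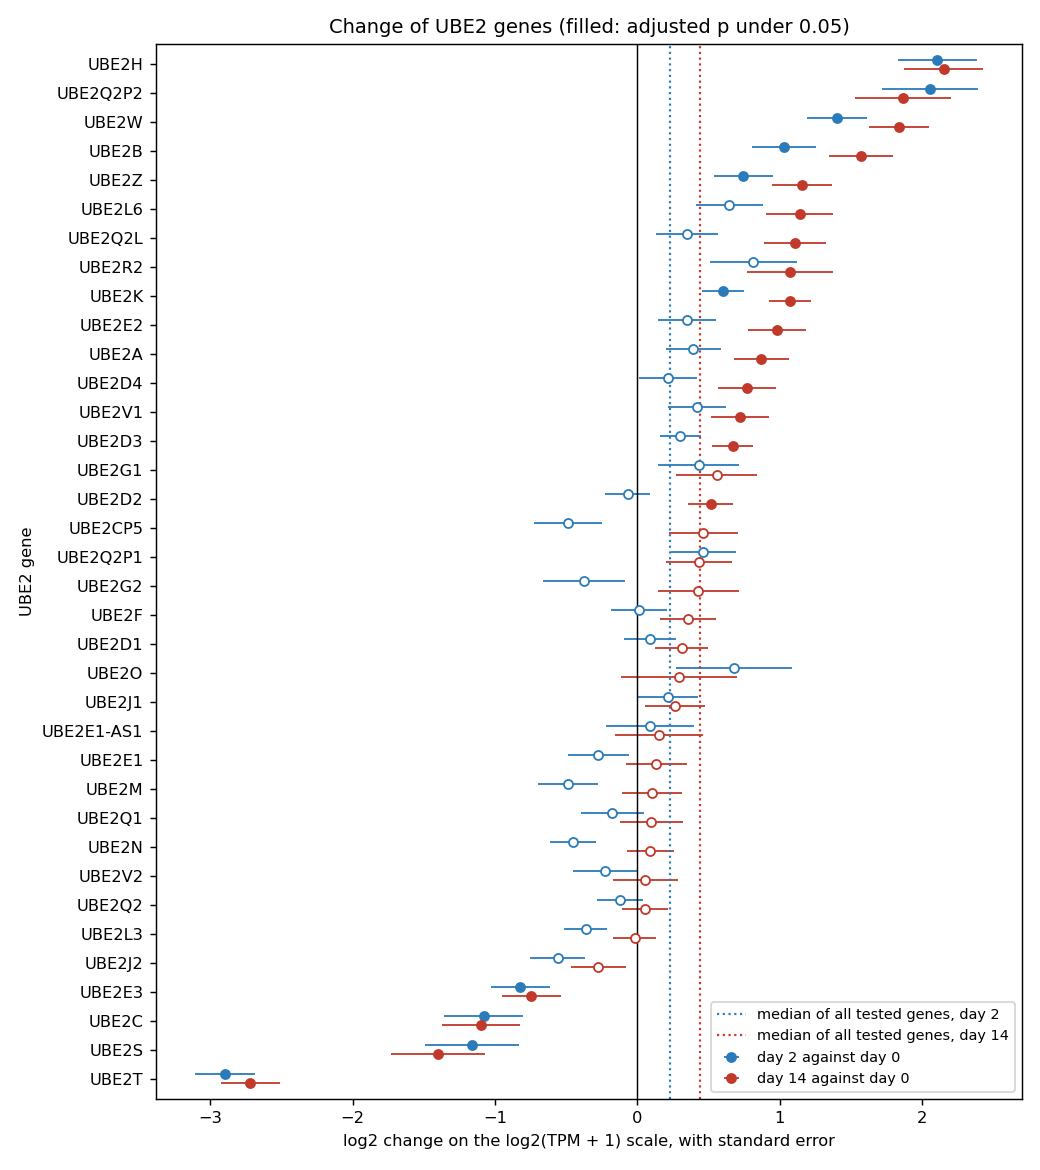
Log2 change of 36 of the 37 tested UBE2 genes on the log2(TPM + 1) scale (horizontal axis) at day 2 against day 0 (blue) and at day 14 against day 0 (red), with standard errors; filled points passed limma at an adjusted p under 0.05, and dotted lines mark the median change of all 14144 tested genes, 0.23 at day 2 and 0.44 at day 14. UBE2H lies at the top with 2.11 and 2.15, and UBE2T at the bottom with -2.90 and -2.72.

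The genes that fell include the E2 enzymes of mitosis and of DNA crosslink repair. UBE2T, which with the ligase FANCL attaches single ubiquitins to FANCD2 and FANCI in that repair, had 118.7, 159.6 and 129.1 TPM in the 3 day 0 libraries. It had 18.2, 18.1 and 15.5 TPM at day 2 and 15.2, 23.7 and 20.9 TPM at day 14. Every day 0 library was thus far above every later one, and day 2 and day 14 overlapped. The log2 change was -2.90 ± 0.21 (SE) at day 2 against day 0 and -2.72 ± 0.21 at day 14 against day 0, with limma adjusted p of 0.000104 and 0.000185. No transcript stretch of 31 bases of UBE2T is shared with another gene of GENCODE 29.

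UBE2S and UBE2C work in sequence on the anaphase-promoting complex (APC/C), the ligase that ends mitosis: UBE2C starts chains on substrates and UBE2S extends them through lysine 11. UBE2S was the most abundant UBE2 symbol by mean TPM, with 964.1, 2173 and 1100 TPM at day 0, 539.1, 743.7 and 514.1 TPM at day 2, and 478.2, 638.5 and 410.3 TPM at day 14. Day 0 replicate 2 was the highest by far, and the other day 0 libraries were still above all later ones. The log2 change of UBE2S was -1.16 ± 0.33 at day 2 against day 0 (limma adjusted p = 0.0288, and 0.0523 with no filter on low values) and -1.40 ± 0.33 at day 14 against day 0 (adjusted p = 0.0129). Without day 0 replicate 2 it was -0.80 (adjusted p = 0.0208) and -1.04 (adjusted p = 0.00705). Of its transcript stretches of 31 bases, 19.6% occur in other genes, 15.5% in the pseudogene UBE2SP1, which is not among the 47 symbols. Its level is thus uncertain, by an amount that these shares do not give.

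UBE2C, the next most abundant by mean over the 9 libraries, had 386.5, 476.1 and 348.7 TPM at day 0, 178.8, 215.4 and 175.2 TPM at day 2, and 119.5, 230.2 and 235.5 TPM at day 14. The day 14 libraries spread widely around the day 2 level, with replicate 1 lowest, and all 6 later libraries were below day 0. At day 14 its mean of 195.1 TPM was under those of UBE2M (202.8 TPM) and UBE2Z (202.6 TPM). Its log2 change was -1.08 ± 0.28 at day 2 against day 0 and -1.10 ± 0.28 at day 14 against day 0, with limma adjusted p of 0.0192 and 0.0168.

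UBE2E3, an E2 with an N-terminal extension, had 75.7, 114.7 and 75.6 TPM at day 0, 45.0, 53.2 and 48.4 TPM at day 2, and 58.7, 51.1 and 45.3 TPM at day 14. Again all later libraries were below day 0, and the 2 later days overlapped. The log2 change was -0.82 ± 0.21 at day 2 against day 0 (limma adjusted p = 0.0183) and -0.75 ± 0.21 at day 14 against day 0 (adjusted p = 0.0247). At day 2 the calls of UBE2S, UBE2C and UBE2E3 were each lost without a single library: leaving out day 2 replicate 1 or day 2 replicate 3 left 1 UBE2 gene called lower, UBE2T. Over all genes, 945 and 960 were then called lower, against 1633 with all 9 libraries. The day 14 call of UBE2E3 was lost without day 14 replicate 2 or day 14 replicate 3 (adjusted p = 0.0719 and 0.0886).

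**Figure D2:**
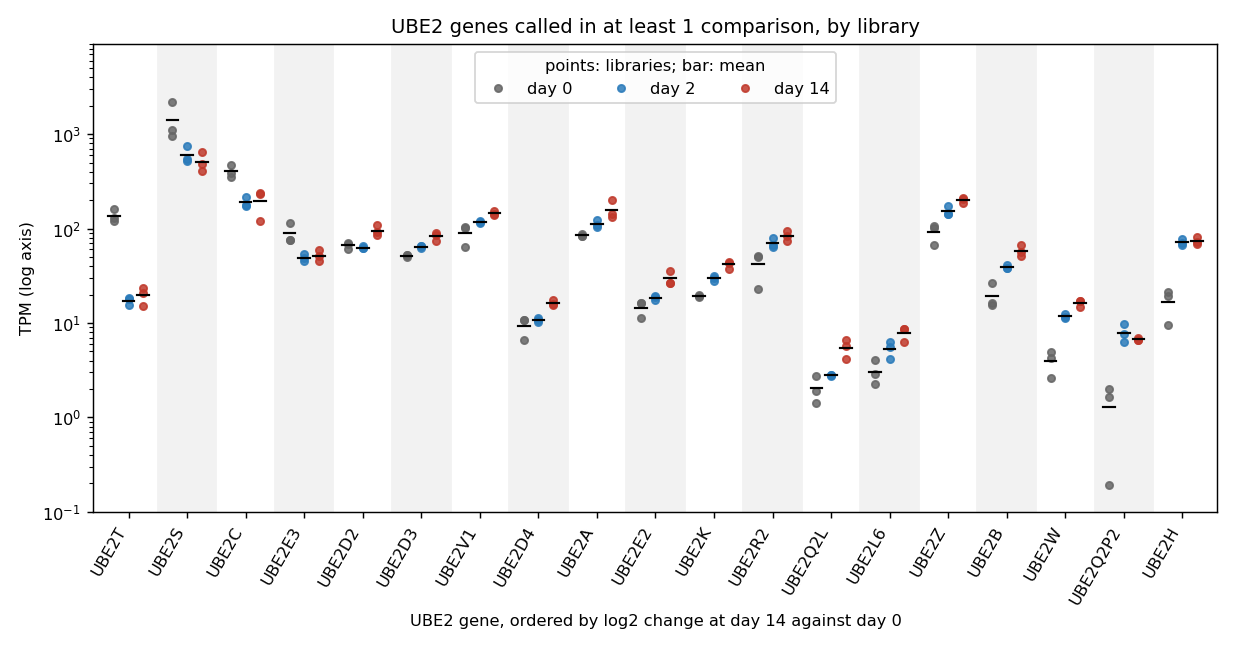
TPM (vertical, log axis) of the 19 UBE2 genes called in at least 1 comparison, ordered by their log2 change at day 14 against day 0; each point is a library at day 0 (grey), day 2 (blue) or day 14 (red), and bars are means of 3. UBE2T, at the left, had 118.7 to 159.6 TPM at day 0 and 15.2 to 23.7 TPM at the later days, and UBE2H, at the right, had 9.48 to 21.3 TPM at day 0 and 67.7 to 80.5 TPM at the later days.

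UBE2H had the largest rise of the family at both days on the log2(TPM + 1) scale. This E2 works with the CTLH (GID) ligase complex and is best known from red cell maturation. It had 19.4, 9.48 and 21.3 TPM at day 0, 69.6, 77.3 and 67.7 TPM at day 2, and 71.9, 80.5 and 69.4 TPM at day 14. The 6 later libraries formed a narrow band above day 0, with day 0 replicate 2 lowest of all. The log2 change was 2.11 ± 0.28 at day 2 against day 0 (limma adjusted p = 0.00111) and 2.15 ± 0.28 at day 14 against day 0 (adjusted p = 0.00114). Without day 0 replicate 2 it was 1.77 and 1.81 (adjusted p = 6.08e-05 and 6.79e-05).

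UBE2W, which attaches ubiquitin to the N-terminal amino group of substrates, was low throughout. It had 4.90, 2.64 and 4.30 TPM at day 0, 11.4, 12.4 and 11.7 TPM at day 2, and 14.7, 17.2 and 17.1 TPM at day 14. The 3 days did not overlap, and the level was ordered by day. The log2 change was 1.40 ± 0.21 at day 2 against day 0 (limma adjusted p = 0.00208) and 1.84 ± 0.21 at day 14 against day 0 (adjusted p = 0.000757), and 0.43 ± 0.21 at day 14 against day 2, which was not called (adjusted p = 0.322).

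UBE2B and UBE2A are the human counterparts of yeast Rad6, which with RAD18 marks PCNA at stalled replication forks and with RNF20 and RNF40 marks histone H2B. UBE2B had 16.1, 26.4 and 15.4 TPM at day 0, 38.5, 38.4 and 41.4 TPM at day 2, and 66.2, 56.3 and 51.3 TPM at day 14. Its 3 days did not overlap either, with a log2 change of 1.03 ± 0.23 at day 2 and 1.57 ± 0.23 at day 14 against day 0 (limma adjusted p = 0.00976 and 0.00173). Here day 0 replicate 2 was the highest day 0 library. UBE2A had 87.7, 84.1 and 83.0 TPM at day 0, 104.3, 123.9 and 108.2 TPM at day 2, and 201.6, 143.7 and 130.9 TPM at day 14. Its day 0 libraries were tightly grouped and the day 14 libraries wide, with replicate 1 highest. The log2 change of UBE2A was 0.39 ± 0.19 at day 2 against day 0, not called (limma adjusted p = 0.149), and 0.87 ± 0.19 at day 14 against day 0 (adjusted p = 0.00975).

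UBE2Z and UBE2L6 carry modifiers charged by dedicated E1 enzymes. UBE2Z takes ubiquitin and FAT10 from UBA6, and UBE2L6 takes ISG15 from UBA7. UBE2Z had 102.2, 67.3 and 107.0 TPM at day 0, 143.0, 174.3 and 140.8 TPM at day 2, and 211.5, 207.9 and 188.3 TPM at day 14. The 3 days did not overlap, and the log2 change was 0.75 ± 0.21 at day 2 and 1.16 ± 0.21 at day 14 against day 0 (limma adjusted p = 0.0272 and 0.00438). The day 2 call was lost when any 1 of the day 2 libraries was left out (adjusted p = 0.0642 to 0.0969). UBE2L6 had 2.89, 2.23 and 4.03 TPM at day 0, 6.26, 5.53 and 4.11 TPM at day 2, and 6.33, 8.64 and 8.59 TPM at day 14. All later libraries were above day 0, the nearest being day 2 replicate 3 at 4.11 TPM. The log2 change of UBE2L6 was 0.65 ± 0.24 at day 2 against day 0, not called (limma adjusted p = 0.0678), and 1.14 ± 0.24 at day 14 against day 0 (adjusted p = 0.00748).

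UBE2K and UBE2R2 build chains linked through lysine 48, UBE2R2 on cullin-RING ligases. UBE2K had 18.9, 19.2 and 19.7 TPM at day 0, 28.1, 29.7 and 31.4 TPM at day 2, and 44.0, 37.6 and 43.3 TPM at day 14. The day 0 libraries, replicate 2 included, were nearly equal, and the 3 days did not overlap. The log2 change was 0.60 ± 0.15 at day 2 and 1.07 ± 0.15 at day 14 against day 0 (limma adjusted p = 0.017 and 0.00158). The day 2 call was lost when any 1 of the day 2 libraries was left out (adjusted p = 0.0519 to 0.0773). UBE2R2 had 50.5, 22.7 and 51.7 TPM at day 0, 64.0, 78.8 and 66.6 TPM at day 2, and 94.4, 74.1 and 82.6 TPM at day 14. Day 0 replicate 2 was far below its group, and its weight shows in the values: the log2 change was 0.82 ± 0.30 at day 2 against day 0 (limma adjusted p = 0.0727) and 1.07 ± 0.30 at day 14 against day 0 (adjusted p = 0.0263), but 0.44 (adjusted p = 0.0323) and 0.70 (adjusted p = 0.0049) without that library. The day 14 call was lost when any 1 of the day 14 libraries was left out (adjusted p = 0.0549 to 0.0819).

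The UBE2D enzymes serve a wide range of RING ligases, and 3 of the 4 tested were called higher at day 14, beside 27.5% of all genes. UBE2D3 had 51.9, 50.5 and 52.1 TPM at day 0, 61.6, 64.7 and 65.0 TPM at day 2, and 85.4, 89.1 and 74.0 TPM at day 14. Its 3 days did not overlap, and the log2 change at day 14 against day 0 was 0.67 ± 0.15 (limma adjusted p = 0.00906), but 0.07 after median-ratio scaling (adjusted p = 0.829). UBE2D2 had 70.1, 60.2 and 68.2 TPM at day 0, 61.7, 64.7 and 62.4 TPM at day 2, and 108.2, 91.1 and 86.1 TPM at day 14. Day 0 and day 2 overlapped in UBE2D2, and the log2 change at day 14 against day 0 was 0.51 ± 0.16 (limma adjusted p = 0.0338). After median-ratio scaling this value was -0.08 (adjusted p = 0.775), and leaving out any library other than day 0 replicate 2 ended the call. UBE2D4 had 10.67, 6.62 and 10.64 TPM at day 0, 10.3, 11.2 and 10.8 TPM at day 2, and 17.5, 15.6 and 15.8 TPM at day 14. UBE2D4 likewise overlapped between day 0 and day 2 and stood apart at day 14, with a log2 change of 0.77 ± 0.21 against day 0 (limma adjusted p = 0.0208), a call that was lost without any 1 of the day 14 libraries (adjusted p = 0.0575 to 0.0658). After median-ratio scaling the change of UBE2D4 was 0.21 (adjusted p = 0.207). UBE2D1 averaged 11.4 ± 1.68, 12.2 ± 0.51 and 14.4 ± 2.14 TPM at days 0, 2 and 14 (SD, n = 3 each) and was not called.

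UBE2E2 and UBE2E1 share the N-terminal extension of UBE2E3 and were not called lower. UBE2E2 had 16.1, 11.3 and 16.3 TPM at day 0, 19.5, 19.0 and 17.3 TPM at day 2, and 35.5, 26.6 and 26.8 TPM at day 14. All day 14 libraries were above all others, with a log2 change of 0.98 ± 0.20 at day 14 against day 0 (limma adjusted p = 0.00756). UBE2E1 averaged 66.1 ± 19.9, 53.0 ± 1.87 and 70.8 ± 5.42 TPM at days 0, 2 and 14 (SD, n = 3 each) and was not called.

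UBE2V1, a catalytically inactive partner that pairs with UBE2N to build chains linked through lysine 63, had 103.5, 64.0 and 101.1 TPM at day 0. It had 115.5, 115.9 and 121.1 TPM at day 2 and 140.6, 154.7 and 141.0 TPM at day 14. The days did not overlap, and the log2 change at day 14 against day 0 was 0.72 ± 0.20 (limma adjusted p = 0.0255), a call that was lost without any 1 of the day 14 libraries (adjusted p = 0.0569 to 0.0844). UBE2V1 shares 39.8% of its transcript stretches of 31 bases with the readthrough gene TMEM189-UBE2V1, which was listed at 0 to 9.42 TPM, so reads may be split between both. UBE2N itself averaged 50.8 ± 6.46, 36.7 ± 2.41 and 54.1 ± 4.73 TPM at days 0, 2 and 14, and UBE2V2, the other partner, 62.6 ± 20.4, 51.8 ± 4.58 and 63.2 ± 5.65 TPM (SD, n = 3 each). Neither was called with all 9 libraries on the TPM as deposited. UBE2N was called lower at day 2 without day 0 replicate 2 (log2 change -0.54, limma adjusted p = 0.00735) and after median-ratio scaling (-0.80, adjusted p = 0.0179).

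UBE2Q2P2, a transcribed pseudogene of UBE2Q2, had 1.65, 0.19 and 2.00 TPM at day 0, 7.61, 9.76 and 6.32 TPM at day 2, and 6.92, 6.66 and 6.61 TPM at day 14. Its day 0 libraries were all below the later ones, with a log2 change of 2.05 ± 0.34 at day 2 and 1.87 ± 0.34 at day 14 against day 0 (limma adjusted p = 0.003 and 0.00434). With a pseudocount of 0.1 the changes of UBE2Q2P2, at 2.94 and 2.74, were larger than those of UBE2H, at 2.17 and 2.22. UBE2Q2L had 1.42, 2.76 and 1.89 TPM at day 0, 2.78, 2.82 and 2.77 TPM at day 2, and 6.52, 4.19 and 5.75 TPM at day 14, with a log2 change of 1.11 ± 0.22 at day 14 against day 0 (limma adjusted p = 0.00597). At day 2 its lowest library, at 2.77 TPM, barely cleared the highest day 0 library, at 2.76 TPM. Of the transcript stretches of 31 bases, 33.7% in UBE2Q2P2 and 52.7% in UBE2Q2L occur in other genes, so both levels are uncertain. Their parent UBE2Q2 averaged 18.2 ± 2.23, 16.5 ± 0.60 and 18.8 ± 1.49 TPM at days 0, 2 and 14 (SD, n = 3 each) and was not called.

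The other 18 tested members were not called in any comparison of the 9 libraries on the TPM as deposited. They include the carriers of NEDD8. UBE2M, which loads NEDD8 onto most cullins, averaged 191.6 ± 42.2, 134.7 ± 17.3 and 202.8 ± 24.1 TPM at days 0, 2 and 14, and UBE2F, its counterpart for the cullin CUL5, averaged 20.5 ± 3.77, 20.5 ± 1.34 and 26.6 ± 4.78 TPM (SD, n = 3 each). UBE2M is among the genes that hang on the choices of analysis: without day 0 replicate 2 it was called lower at day 2 (log2 change -0.68, limma adjusted p = 0.00591), and after median-ratio scaling its log2 change at day 14 was -0.50 (adjusted p = 0.0424), in place of 0.10.

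The E2 enzymes of degradation at the endoplasmic reticulum were also not called, apart from UBE2K. UBE2J2 averaged 79.3 ± 12.3, 53.4 ± 6.83 and 65.4 ± 10.4 TPM at days 0, 2 and 14 (SD, n = 3 each), and its fall at day 2 missed the threshold (limma log2 change -0.56 ± 0.19, adjusted p = 0.0569) although all 3 day 2 libraries were below all day 0 libraries. UBE2J1 ranged over 8.995 to 15.98 TPM in the 9 libraries, UBE2G1 over 13.1 to 35.2 TPM and UBE2G2 over 16.4 to 42.7 TPM, each lowest in day 0 replicate 2. UBE2G2 was called lower at day 2 without that library (log2 change -0.70, limma adjusted p = 0.00974) and after median-ratio scaling (-0.71, adjusted p = 0.00713). UBE2L3, which serves HECT and RBR ligases, averaged 54.7 ± 1.39, 42.3 ± 2.37 and 54.1 ± 5.62 TPM at days 0, 2 and 14 (SD, n = 3 each). At day 2 its 3 libraries were below all of day 0 (limma log2 change -0.36 ± 0.15, adjusted p = 0.0969). Without day 0 replicate 2 it was called (-0.35, adjusted p = 0.039), as were UBE2Q1 (-0.40, adjusted p = 0.0398) and UBE2CP5 (-0.70, adjusted p = 0.0167), both also after median-ratio scaling (adjusted p = 0.023 and 0.00746). UBE2O, a large hybrid of E2 and E3, ranged over 6.27 to 28.7 TPM, UBE2Q1 over 23.3 to 39.1 TPM, the pseudogene-like symbol UBE2CP5 over 2.35 to 6.93 TPM, UBE2Q2P1 over 0.07 to 1.36 TPM and the antisense UBE2E1-AS1 over 0 to 1.40 TPM.

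The remaining 10 symbols did not pass the filter. UBE2DNL, UBE2NL and UBE2U were listed at 0 in all 9 libraries. UBE2Q1-AS1 reached 1.75 TPM and UBE2F-SCLY 1.52 TPM in their highest library, and UBE2L5, UBE2MP1, UBE2E4P, UBE2E2-AS1 and UBE2QL1 stayed under 1 TPM.

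The summed level of the family was led by its mitotic members. All 47 symbols together held 3283 ± 658 TPM at day 0, 2229 ± 239 TPM at day 2 and 2565 ± 175 TPM at day 14 (SD, n = 3 each). UBE2S alone made up 33.8%, 53.8% and 37.2% of that sum in the day 0 libraries, 25.8%, 29.7% and 24.6% at day 2, and 18.3%, 23.6% and 17.3% at day 14. Without UBE2S, UBE2C and UBE2T the remaining 44 symbols held 1331 ± 86.6, 1423 ± 92.8 and 1841 ± 150.4 TPM at days 0, 2 and 14, so the sum of the others was highest at day 14, while the whole was highest at day 0. UBE2S, UBE2C and UBE2T were called lower in these same data, so the contrast between the sums follows in part from leaving them out. The median log2 change of all tested genes against day 0 was 0.23 at day 2 and 0.44 at day 14. These sums were not tested.

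**Figure D3:**
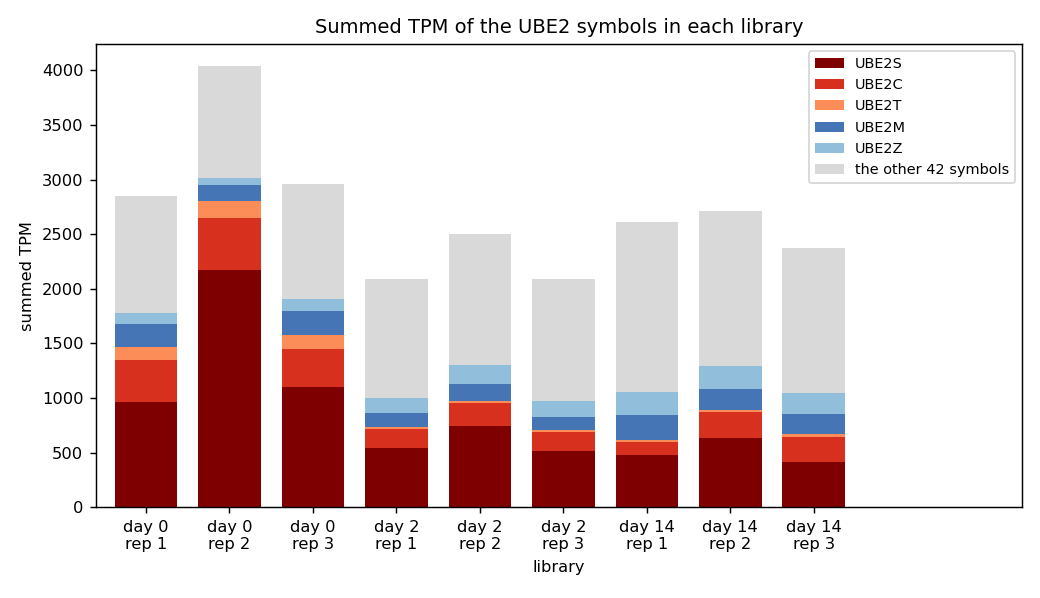
Summed TPM of the 47 UBE2 symbols in each of the 9 libraries (bars start at 0), split into UBE2S, UBE2C, UBE2T, UBE2M, UBE2Z and the other 42 symbols. The bars reach 2849 to 4040 TPM at day 0, 2089 to 2505 TPM at day 2 and 2371 to 2709 TPM at day 14, and the tallest, day 0 replicate 2, holds 2173 TPM of UBE2S.

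Ratios of related genes within a library are independent of how the libraries are scaled, apart from the pseudocount. The log2 ratio of (TPM + 1) was compared over the 3 days for 14 pairs by an exact permutation test. Its statistic, the one-way F, sets the spread between days against the spread within them. All 1680 arrangements of the libraries were used, for which the smallest possible p is 0.00357. A pass names no direction and no particular day. After Benjamini-Hochberg adjustment over the 14 pairs, 7 differed between days. UBE2E1 over UBE2E3 had a mean log2 ratio of -0.43 ± 0.08 at day 0, 0.12 ± 0.08 at day 2 and 0.45 ± 0.09 at day 14 (SD, n = 3 each; exact adjusted p = 0.025). UBE2E1 was thus the lower of the pair at day 0, with 0.698 to 0.776 times the TPM of UBE2E3, and the higher at day 14, with 1.28 to 1.43 times. UBE2E2 over UBE2E3 had -2.52 ± 0.62, -1.35 ± 0.16 and -0.79 ± 0.11 at days 0, 2 and 14 (SD, n = 3 each; exact adjusted p = 0.025). Both ratios passed also with each library left out in turn.

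The ratio of UBE2G1 over UBE2G2 was highest at day 2 and did not move in 1 direction with time. Its mean log2 value was -0.24 ± 0.07, 0.56 ± 0.14 and -0.11 ± 0.19 at days 0, 2 and 14 (SD, n = 3 each, exact adjusted p = 0.0417). UBE2R2 over CDC34, the other lysine 48 builder of cullin-RING ligases, had -1.15 ± 0.64, -0.05 ± 0.16 and -0.55 ± 0.19 (SD, n = 3 each; exact adjusted p = 0.0333). UBE2J1 over UBE2J2 (exact adjusted p = 0.0375), UBE2D2 over UBE2D3 (0.0417) and UBE2L6 over UBE2L3 (0.0429) also passed. These 5 pairs did not hold up in every repeat: leaving out a single library left 2 to 6 pairs, and without day 0 replicate 2 there were 3, including UBE2F over UBE2M (exact adjusted p = 0.0167). UBE2V1 over UBE2V2 lay at the threshold itself (exact adjusted p = 0.05). The others did not pass. Nearest were UBE2D1 over UBE2D3 and UBE2A over UBE2B (exact adjusted p = 0.0778 and 0.08), and UBE2C over UBE2S was far from it (exact adjusted p = 0.765).

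**Figure D4:**
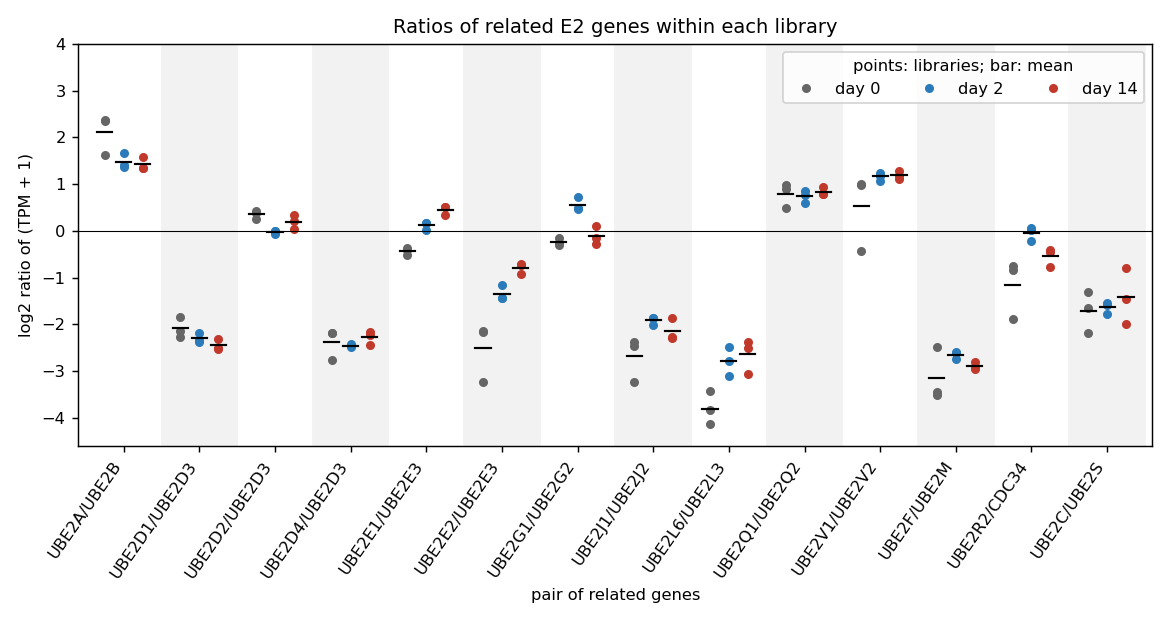
Log2 ratio of (TPM + 1) within each library (vertical axis) for 14 pairs of related genes, the first named gene over the second; points are libraries at day 0 (grey), day 2 (blue) and day 14 (red), and bars are means of 3. UBE2E1/UBE2E3 and UBE2E2/UBE2E3 step upward over the 3 days, with means of -0.43, 0.12 and 0.45 and of -2.52, -1.35 and -0.79 at days 0, 2 and 14, and UBE2G1/UBE2G2 is highest at day 2.

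Between the later days, limma called 0 of 37 UBE2 genes at day 14 against day 2, beside 0.212% of all tested genes called higher and 0.205% called lower. At an unadjusted p under 0.05, 13 UBE2 genes were higher and 0 lower, and 2558 of all genes (18.1%) passed in either direction. Those 2558 were not split by direction. The median log2 difference was 0.30 over the UBE2 genes and 0.24 over all genes, and 31 of 37 UBE2 genes, beside 75.1% of all genes, had a higher mean on the log2 scale at day 14. In 21 UBE2 genes every day 14 library was above every day 2 library, and in 1, UBE2O, every one was below. The same count was not made over all genes, so it cannot be read as particular to the UBE2 genes. The count of 0 rests on day 0 replicate 2, which enters through the shared estimate of the spread: without it, 16 UBE2 genes (43.2%) were called higher at day 14 against day 2, beside 23.5% of all genes, and 0 lower, beside 3.86%. These 16 were led by UBE2CP5 (log2 difference 0.95), UBE2G2 (0.80), UBE2Q2L (0.76) and UBE2E2 (0.64). With median-ratio scaling added, 6 were higher, beside 6.09% of all genes, and 2 lower, beside 6.76%.

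Partners of the E2 enzymes along the pathway were read from lists of genes. Of the 10 APC/C substrates, 9 fell at day 2 and all 10 at day 14 against day 0, beside 11.5% and 6.72% of all genes, with a median log2 change of -2.14 and -2.22. Securin (PTTG1), whose loss lets sister chromatids part, had 177.7, 776.4 and 219.0 TPM at day 0, 33.9, 29.7 and 31.1 TPM at day 2, and 14.8, 39.9 and 35.5 TPM at day 14. Its log2 change was -3.27 ± 0.56 at day 2 and -3.45 ± 0.56 at day 14 against day 0 (limma adjusted p = 0.00348 and 0.00284). Day 0 replicate 2 was by far its highest library, and without it the changes were -2.61 and -2.79 (limma adjusted p = 0.00119 and 0.000916). Of the 17 APC/C subunits, activators and inhibitors, 1 rose and 3 fell at each day. The shares of all genes were 19.2% higher and 11.5% lower at day 2, and 27.5% higher and 6.72% lower at day 14. Among those that fell was the mitotic activator CDC20 (log2 change -2.20 ± 0.37 and -2.52 ± 0.37, limma adjusted p = 0.00313 and 0.00185, and -2.60 and -2.92 without day 0 replicate 2, adjusted p = 0.000275 and 0.000199). FZR1, the activator of late mitosis and G1, averaged 21.2 TPM at day 0, 20.1 TPM at day 2 and 22.9 TPM at day 14 and was not called. Without day 0 replicate 2 FZR1 was called lower at day 2 (log2 change -0.36, limma adjusted p = 0.0416), and with median-ratio scaling added it was called lower at both days (-0.44 and -0.50, adjusted p = 0.00828 and 0.00512).

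FANCL, the ligase that UBE2T serves, fell as well, with a log2 change of -1.42 ± 0.27 at day 2 and -0.90 ± 0.27 at day 14 against day 0 (limma adjusted p = 0.00537 and 0.0315). The day 14 call of FANCL was lost without day 2 replicate 3 or any 1 of the day 14 libraries (limma adjusted p = 0.051 to 0.0955). RAD18, the ligase of UBE2A and UBE2B, fell at day 2 (log2 change -0.99 ± 0.25, limma adjusted p = 0.0181). That call was lost without replicate 1 or replicate 3 of day 0 or of day 2 (limma adjusted p = 0.0526 to 0.0656). Of these 8 partner ligases of DNA repair, 0 rose and 2 fell at day 2, and 2 rose, SHPRH and RNF168, and 1 fell at day 14. Of all genes, 19.2% were higher and 11.5% lower at day 2, and 27.5% higher and 6.72% lower at day 14, so these counts are near the background. The SHPRH call was lost with a pseudocount of 0.1 (adjusted p = 0.0674), and both calls were lost after median-ratio scaling (adjusted p = 0.0594 and 0.397). Of 17 tested HECT and RBR ligases, 3 rose at day 2 and 5 at day 14, led by NEDD4L (log2 change 1.32 and 1.82, limma adjusted p = 0.0288 and 0.00747), and 0 fell. The higher calls are near the 19.2% and 27.5% of all genes at those days. At day 2 the NEDD4L call was lost without any 1 of the day 2 libraries (limma adjusted p = 0.0696 to 0.0853).

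Upstream of the E2 enzymes, 0 of 8 tested E1 enzymes rose at either day, beside 19.2% of all genes at day 2 and 27.5% at day 14. At day 2, beside 11.5% of all genes, 3 fell: NAE1 and UBA3, the subunits of the NEDD8 E1, with log2 changes of -0.97 ± 0.15 and -0.57 ± 0.18 (limma adjusted p = 0.00213 and 0.0426), and ATG7, the E1 of autophagy, with -0.95 ± 0.19 (adjusted p = 0.00709). The UBA3 call was lost without any 1 library other than day 0 replicate 2 (limma adjusted p = 0.0577 to 0.138). None of the 8 was called at day 14, beside 6.72% of all genes. UBA1, the main ubiquitin E1, averaged 166.4 TPM at day 0, 99.1 TPM at day 2 and 120.1 TPM at day 14, and UBA6, which charges UBE2Z, 6.96, 6.21 and 8.55 TPM at the same days. Neither was called with all 9 libraries. Without day 0 replicate 2 UBA1 was called lower at both days (log2 change -1.08 and -0.81, limma adjusted p = 0.000706 and 0.00243), as were NAE1, UBA3 and ATG7, and UBA6 at day 2 (-0.34, adjusted p = 0.0355).

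Among the ubiquitin-like modifiers, NEDD8 had 145.7, 324.2 and 164.3 TPM at day 0, 50.9, 60.7 and 50.4 TPM at day 2, and 104.9, 76.4 and 92.3 TPM at day 14. All later libraries were below day 0, with a log2 change of -1.86 ± 0.30 at day 2 and -1.12 ± 0.30 at day 14 (limma adjusted p = 0.00266 and 0.0201), and -1.51 and -0.77 without day 0 replicate 2, its highest library (adjusted p = 0.000332 and 0.00565). The day 14 call of NEDD8 was lost without day 14 replicate 2 or day 14 replicate 3 (limma adjusted p = 0.0726 and 0.0555). SUMO2, SUMO3 and ISG15 fell with NEDD8 at day 2 (log2 changes -1.46, -1.46 and -1.44, limma adjusted p = 0.00101, 0.00123 and 0.0336), and SUMO3 also at day 14 (log2 change -0.70, adjusted p = 0.0263). The day 14 call of SUMO3 was lost without day 0 replicate 1 or 3, or without any 1 of the day 14 libraries (limma adjusted p = 0.0568 to 0.0874). ISG15 was named after its values were seen, and its change at day 2 was -0.90 without day 0 replicate 2 (adjusted p = 0.0126). UFM1 rose at both days (log2 change 0.82 and 1.33, limma adjusted p = 0.00657 and 0.000951). Of 8 E2 and E2-like genes named otherwise, 2 rose and 1 fell at day 2, and 4 rose and 0 fell at day 14. These shares stand beside 19.2% of all genes higher and 11.5% lower at day 2, and 27.5% higher and 6.72% lower at day 14. BIRC6, a giant hybrid of E2 and E3, and UFC1, the E2 of UFM1, rose at both days, AKTIP and TSG101 at day 14, and ATG3, the E2-like enzyme of autophagy, fell at day 2. At day 2 the calls of BIRC6 and ATG3 were lost without any 1 of the day 2 libraries (limma adjusted p = 0.0531 to 0.105). The day 2 call of UFC1 lay at the threshold (limma adjusted p = 0.0497) and was lost with a pseudocount of 0.1 or 5 (adjusted p = 0.0508 and 0.0519). After median-ratio scaling UFC1, AKTIP, TSG101 and UFM1 were not called. CDC34 averaged 88.1 TPM at day 0, 73.1 TPM at day 2 and 124.6 TPM at day 14 and was not called.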

How the data were processed

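RNA sequencing of 9 PANC-1 samples was analysed from 1 table of TPM per gene symbol that the authors deposited. Per the submitters' processing notes it was made with Salmon and names hg19; versions, annotation and strand setting are not given in the sources used here. Each column is scaled to a fixed sum per library, so depth is lost, and what a few abundant entries gain the rest lose.

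Columns were assigned to samples by day and replicate number. The filter kept symbols that reached 1 TPM in 3 or more of 9 libraries. Tests used log2(TPM + 1), a scale that understates the change of low genes, and limma 3.58.1 (R 4.3.3) with its trend option, fitted once to the 9 libraries, two-sided, with Benjamini-Hochberg adjustment per comparison at 0.05. The fit was tested on simulated data. Ratios within a library were tested by exact permutation (Python 3.11.15, NumPy 2.4.6), and figures drawn with matplotlib 3.10.9. Shared stretches of 31 bases were counted in GENCODE 29 transcripts on GRCh38, where 45 of 47 symbols matched.

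Members, lists and tests were chosen with earlier results of these data known. The naming rule gave values per library for members called in at least 1 comparison and means or ranges for the others. It also took up to 3 called genes per pathway list, direction and comparison, plus CDC34, UBA1, UBA6, CDC20, FZR1 and RPS27A; not all of these are printed, and some items are not reported here. No pair of libraries shared a nonzero value. Same-numbered libraries did not deviate together and were not paired. Alternatives were pseudocounts of 0.1 and 5, no filter, median-ratio scaling, a filter on a mean of 5 TPM, limma without trend, a replicate block and leaving out each library. Rescaling without MIR6723 and MIR4461, and median-ratio scaling without day 0 replicate 2, were added after seeing the data.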

Additional observations from a re-analysis of the deposited data

How the results depend on the processing

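Of 10 calls at day 2 and 19 at day 14 against day 0, 4 and 8 held under every alternative run: UBE2T, UBE2H, UBE2W and UBE2Q2P2 at both days, and UBE2S, UBE2C, UBE2Z and UBE2L6 at day 14. At its weakest, the day 14 call of UBE2S lay at the threshold (limma adjusted p = 0.05 after rounding), and that of UBE2L6 was near it (0.0435). Pseudocounts of 0.1 and 5, limma without trend and the filter on a mean of 5 TPM ended no call of a UBE2 gene that they tested, and without the filter the day 2 call of UBE2S was lost (adjusted p = 0.0523). Median-ratio scaling gave 9 UBE2 genes lower at day 2, beside 19.9% of all genes. At day 14 it gave 6 higher and 7 lower, beside 15.5% and 17.9%. The changes of UBE2D2 (-0.084), UBE2M (-0.501) and UBE2Q1 (-0.489) at day 14 were then negative. With day 0 replicate 2 also left out, 8 were higher and 11 lower at day 2, beside 23.5% and 29.3% of all genes, 13 were higher and 11 lower at day 14, beside 22.4% and 27.7%, and 6 higher and 2 lower at day 14 against day 2. In that combination day 14 changes were negative for UBE2M (-0.425), UBE2O (-0.562), UBE2Q1 (-0.449), UBE2Q2 (-0.338) and FZR1 (-0.499), the last also at day 2 (-0.437). Rescaling without MIR6723 and MIR4461 gave 6 higher and 5 lower at day 2 and 11 higher and 4 lower at day 14. Of all 14142 genes, 2478 were then higher and 1368 lower at day 2, and 2714 and 951 at day 14.

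Leaving out each library in turn gave 4 to 8 UBE2 genes higher and 1 to 10 lower at day 2, 11 to 18 higher and 3 to 4 lower at day 14, 0 to 16 higher at day 14 against day 2, and 2 to 6 pairs with differing ratios. Over all genes, 1652 to 3472 were higher and 945 to 3328 lower at day 2. At day 14, 2518 to 4875 were higher and 623 to 2038 lower, and 0 to 3311 were higher at day 14 against day 2. Over these repeats the change of FZR1 at day 2 ran over -0.363 to 0.247 and that of RPS27A at day 14 over -0.676 to 0.496, the extremes being without day 0 replicate 2 and replicate 3. The correlation of deviations from the day means was -0.079 to 0.015 for same-numbered libraries and -0.032 to 0.059 for others, so numbers were not taken as pairs. With the replicate block, 4 UBE2 genes were higher and 4 lower at day 2, and 13 higher and 4 lower at day 14. Of all 14144 genes, 2064 were then higher and 1226 lower at day 2, and 3039 and 732 at day 14. In the block, 0 of 14 pairs passed, where 216 arrangements allow no p under 0.0278. The cause of each change was not tested, and without depth no counting error can be given.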
